A study of Mus musculus with 8 samples.

Results

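The 10 genes described here encode scavenger and lipoprotein receptors and their relatives in macrophages. They are Msr1, Marco and Colec12, which have collagen-like stems, Cd36, Scarb1 and Scarb2 of the CD36 family, the lectin-like receptor Olr1, the lysosomal glycoprotein gene Cd68, and Lrp1 and Vldlr of the low-density lipoprotein (LDL) receptor family. They were chosen by symbol, and each of the 10 was measured by 1 probe set that carries that symbol alone, among 20566 genes tested. The cells were macrophages that collect in the peritoneum of C57BL/6J mice after thioglycollate, an irritant broth, harvested 5 days after the injection and then cultured in DMEM with serum. In the 4 acLDL arrays the medium also held acetylated LDL (acLDL), and in the 4 unloaded arrays it held none. All cultures therefore share the strain, the elicitation and the serum, and the age and sex of the mice are not given. The labels give acLDL as 20 µg/mL over 3 days in the sample protocols and as 50 µg/mL over 2 days in the series description, so dose and time are not settled. The series description calls the 4 replicates of each condition biologically independent, without saying which mice supplied which culture.

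Scavenger receptors bind polyanionic ligands such as acetylated or oxidised LDL and carry them to lysosomes. They are not shut off as cell cholesterol rises, which is how macrophages become foam cells. The LDL receptor family takes up native and remnant particles and is held in check by sterol sensing, by ubiquitin ligases and by shedding from the cell surface.

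Values were deposited as log2 expression values, on which a difference of 1 is a doubling, and ran from 2.63 to 14.27, with array medians between 6.23 and 6.36. Arrays correlated at 0.994 to 0.997 across genes within groups and at 0.989 to 0.991 between groups, and 0 pairs were identical. The second principal component, with 17.8% of the variance, set unloaded arrays 1 and 4 apart from unloaded arrays 2 and 3. Each difference was therefore also fitted without either pair. On this component acLDL array 3 stood at -8.11, near unloaded array 2 at -9.29, and the other acLDL arrays at 0.63 to 4.02. A level of 6.12, the 95th percentile of 1027 olfactory receptor genes, served as a mark of background. All 9 macrophage markers lay above it, as did 7 of 10 markers of mesothelial cells and fibroblasts, 1 of 8 of endothelium, 1 of 7 of neutrophils, 1 of 6 of mast cells, 1 of 6 of T cells, 2 of 6 of dendritic cells, and 0 of 4 and 0 of 5 of eosinophils and B cells. RNA came from whole cultures, so fewer cells of a type and less RNA per cell cannot be told apart.

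Of the 10 receptor genes, 2 rose with acLDL, 1 fell and 7 did not pass (limma, adjusted p under 0.05 over all genes). That is 30% of the receptors, against 23.8% of all 20566 genes, so the count stands near the background. Over all genes 12.9% rose and 10.9% fell, that is 2649 higher and 2243 lower, or 2887 higher and 1495 lower when each array was centred on its median. The receptors that rose were Msr1, the class A scavenger receptor for acLDL, and Lrp1, a large endocytic receptor for lipoprotein remnants and proteases. The receptor that fell was Colec12, a scavenger receptor with a lectin head. The median log2 difference of the 10 was 0.08, against -0.005 for all genes, and the median size was 0.13 against 0.11. A change of at least 1.5-fold was called in 0 of the 10 and in 2.11% of all genes.

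**Figure D1:**
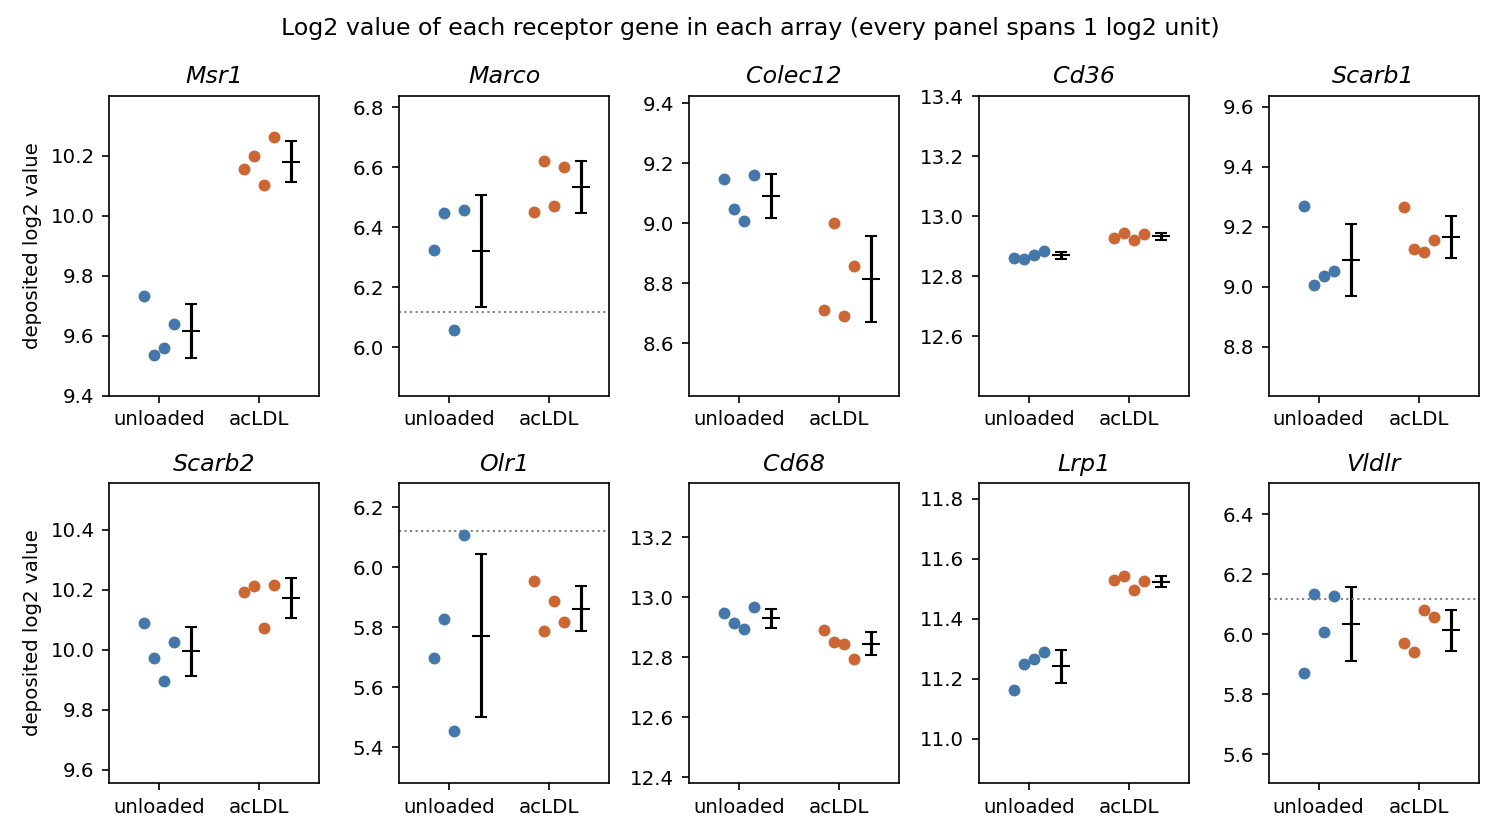
Deposited log2 value of each receptor gene in each of 4 unloaded (blue) and 4 acLDL (orange) arrays, with group mean and SD in black and the background mark of 6.12 as a dotted line where it falls in the panel; every panel spans 1 log2 unit but levels of different genes are not comparable. The groups lie apart in Msr1, Lrp1, Colec12, Cd36 and Cd68 and overlap in the other 5.

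The stretches before the start sites of 3 of these genes are shown, Lrp1 as the gene that rose and has an entry in the promoter table used, and Cd36 and Cd68 as the pair with the smallest spread between arrays. They come from RefSeq on GRCm38.p6, which held 8 start sites for 7 of the receptors and no entry for Msr1, Scarb1 and Colec12. Each is the 250 bases before the start on the minus strand, at chr10:127621149-127621398 for Lrp1, chr5:17835897-17836146 for Cd36 and chr11:69666171-69666420 for Cd68. Capitals mark matches on either strand to GAGGAA, the core bound by the macrophage factor PU.1, to GGGCGG, the GC box bound by Sp1, and to TGANTCA, the AP-1 site.
Lrp1: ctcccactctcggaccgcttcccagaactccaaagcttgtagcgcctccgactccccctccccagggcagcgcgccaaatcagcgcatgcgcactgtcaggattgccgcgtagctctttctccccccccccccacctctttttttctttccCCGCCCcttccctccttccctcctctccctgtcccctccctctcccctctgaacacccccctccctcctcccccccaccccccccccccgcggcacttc
Cd36: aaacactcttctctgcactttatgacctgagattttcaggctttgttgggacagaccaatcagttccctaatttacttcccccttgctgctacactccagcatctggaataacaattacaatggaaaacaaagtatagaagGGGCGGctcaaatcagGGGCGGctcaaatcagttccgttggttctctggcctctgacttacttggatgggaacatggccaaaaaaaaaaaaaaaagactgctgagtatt
Cd68: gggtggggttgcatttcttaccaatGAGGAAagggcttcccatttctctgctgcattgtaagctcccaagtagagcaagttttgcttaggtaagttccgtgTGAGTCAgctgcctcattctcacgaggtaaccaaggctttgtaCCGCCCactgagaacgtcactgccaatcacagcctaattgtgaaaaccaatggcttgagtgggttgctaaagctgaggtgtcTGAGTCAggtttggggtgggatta

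In the Lrp1 stretch 76.4% of bases were C or T, a share larger than in 99.9% of 32851 promoters, and it held 1 GC box, 99 bases before the start. The Cd36 stretch held 2 GC boxes, 109 and 93 bases before the start, inside a short tandem repeat. The Cd68 stretch held 1 PU.1-type core, 1 GC box and 2 AP-1 sites. Over the 8 start sites of the 7 receptors, 4 stretches held a PU.1-type core, 5 a GC box and 2 an AP-1 site, and in all promoters the shares were 23.3%, 32.7% and 6.75%. The sterol element TCACNCCAC stood in 0 of the 8 and in 1.05% of all promoters. The palindromic E-box CACGTG, the TATA box TATAAA and direct repeats of AGGTCA spaced by 1 or 4 bases, the layouts used by PPAR and LXR receptors, were also in 0 of the 8. Their shares over all promoters were 6.02%, 12.4%, 0.0335% and 0.0152%. A match is a run of letters and not a measured binding site.

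Msr1, whose product was the first receptor known for acetylated LDL, showed the largest change of the 10. Its log2 levels were 9.73, 9.54, 9.56 and 9.64 in unloaded arrays 1 to 4 and 10.16, 10.20, 10.10 and 10.26 in acLDL arrays 1 to 4. The lowest acLDL array lay 0.37 above the highest unloaded array. The log2 difference was 0.56 ± 0.07 (SE), with group levels of 9.62 ± 0.09 and 10.18 ± 0.07 (SD, n = 4), a 1.48-fold rise (limma adjusted p = 4.98e-05). The size of this difference exceeded that of 97.6% of all genes. It stayed past the threshold in all 22 alternative settings, with a log2 difference from 0.49 to 0.63. The genes above background whose levels were most like those of Msr1 over the 8 arrays were Stx8, Nfkbie and Lsm3, with Pearson r of 0.998, 0.996 and 0.996. These r values are a description, and both the difference between groups and deviations within groups enter them.

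Marco, a class A receptor of bacteria and modified lipoproteins, was dim. Its log2 levels were 6.33, 6.45, 6.06 and 6.46 in unloaded arrays 1 to 4 and 6.45, 6.62, 6.47 and 6.60 in acLDL arrays 1 to 4. The groups overlapped, and unloaded array 3 was the lowest of the 8 and below the mark of 6.12. The log2 difference was 0.21 ± 0.09 (SE) and did not pass (limma adjusted p = 0.0978). Its 95% interval of 0.02 to 0.40, which is not adjusted over genes, holds changes from near 0 up to a size larger than that seen in Lrp1.

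Colec12, which encodes a collectin with scavenger receptor activity known from vascular and stromal cells, fell. Its log2 levels were 9.15, 9.05, 9.01 and 9.16 in unloaded arrays 1 to 4 and 8.71, 9.001, 8.69 and 8.86 in acLDL arrays 1 to 4. The groups lay only 0.007 apart, since acLDL array 2 came close to unloaded array 3. Colec12 fell by 0.28 on the log2 scale (SE 0.08; limma adjusted p = 0.0186), from 9.09 ± 0.07 to 8.82 ± 0.14 (SD, n = 4). With unloaded array 4 left out Colec12 no longer passed (limma adjusted p = 0.0540), nor without acLDL array 1 (0.0640) or acLDL array 3 (0.0608), unloaded arrays 1 and 4 together (0.117), or after median centring (0.0533). The difference remained negative in all 22 alternative settings, between -0.34 and -0.21, with adjusted p from 0.00424 to 0.117.

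Of 10 markers of stromal cells 0 rose and 2 fell, namely Col1a2, a collagen chain, by 0.37 and Dcn, the proteoglycan decorin, by 0.26 on the log2 scale, and the other 8 did not pass. Dcn is named after its value was seen, and its call was lost without unloaded array 4, acLDL array 3 or 4, or unloaded arrays 1 and 4 together, and after median centring. The summed linear level of the 10 markers was 4708 to 5767 in unloaded and 4286 to 4748 in acLDL arrays, ranges that overlap. Unloaded arrays 4 and 1 had the largest sums, 5767 and 5147, and also the largest Colec12 levels, and acLDL array 3 had the smallest of both. In acLDL arrays 1 and 2 the order differed: array 1, with the second lowest Colec12 level, had the largest acLDL sum, 4748, and array 2, with the highest acLDL level, had a sum of 4433. Higher values in unloaded arrays 1 and 4 were not particular to stromal genes. Of the 12050 genes above the background mark, 64.6% averaged higher there than in unloaded arrays 2 and 3. The mesothelial markers Msln and Krt19 and the fibroblast marker Lum lay below the background mark. Col1a1 differed by 0.02 ± 0.07 (log2, SE) and did not pass. Pdgfrb, the receptor of mural cells and fibroblasts, was higher by 0.19 ± 0.06 (log2, SE), with groups that did not overlap. It narrowly failed to pass (limma adjusted p = 0.0508). Over the alternative settings 0 to 1 stromal markers rose and 1 to 3 fell. The part of the stromal markers in the Colec12 result was not tested. Of 8 endothelial markers 0 rose and 2 fell, Kdr by 0.29 and Ptprb by 0.20 on the log2 scale (limma adjusted p = 0.00801 and 0.0484). Ptprb was below the background mark, is named after its value was seen, and passed in 6 of 21 alternatives. Markers of other cells fell too, 3 of 7 of neutrophils, 1 of 6 of mast cells and 1 of 5 of B cells, each below the background mark. Of these lists 0 markers rose, and 0 of eosinophils, T cells and dendritic cells passed. Over all genes 10.9% fell.

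**Figure D2:**
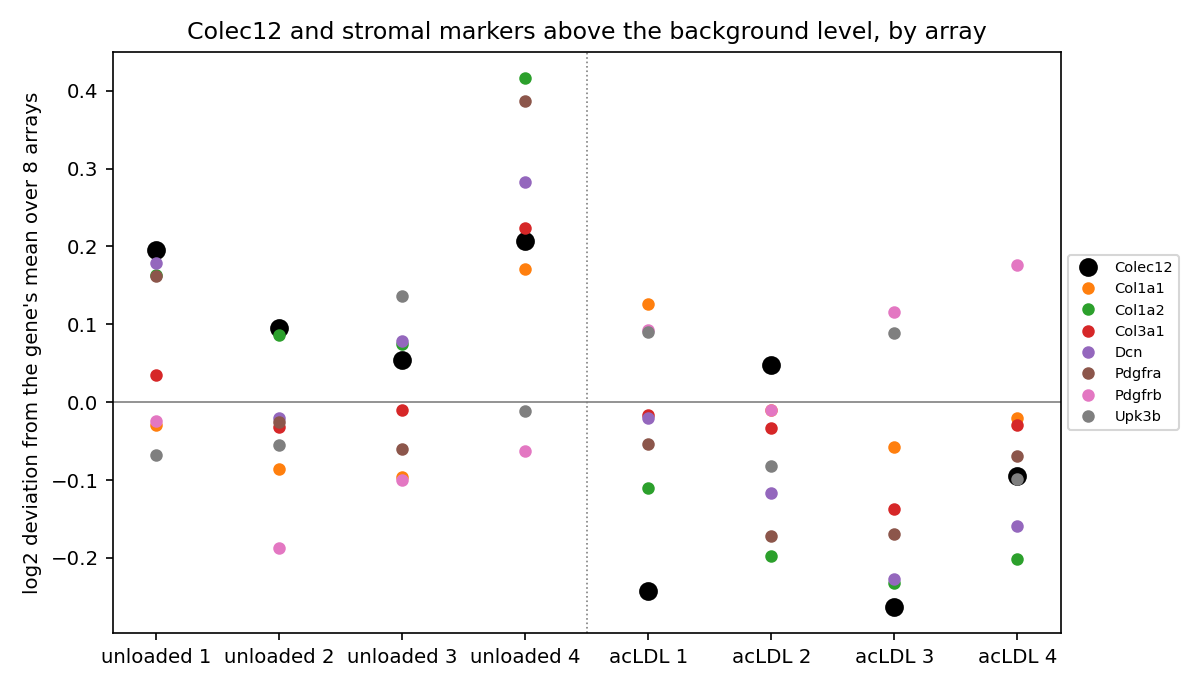
Log2 deviation of Colec12 (large black points) and of the 7 stromal markers above the background mark (coloured) from each gene's mean over 8 arrays, by array. Colec12 stands 0.20 and 0.21 above its mean in unloaded arrays 1 and 4 and 0.24 and 0.26 below it in acLDL arrays 1 and 3; Col1a2 and Dcn stand lower in all 4 acLDL arrays than their own means, while Pdgfrb stands above its mean in 3 of them.

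The CD36 family gave small differences. Cd36, a receptor for oxidised LDL and long-chain fatty acids, stood at 12.86, 12.86, 12.87 and 12.88 in unloaded arrays 1 to 4 and at 12.93, 12.94, 12.92 and 12.94 in acLDL arrays 1 to 4. The groups did not overlap, though the gap was 0.03, and the range within each group was 0.03 or less. Groups that do not overlap were found in 5 of the 10 receptors, 3 higher and 2 lower, and in 25.9% of all genes, 14.0% higher and 11.9% lower. The log2 difference of Cd36 was 0.06 ± 0.05 (SE, limma adjusted p = 0.442) with a 95% interval of -0.05 to 0.18, so that a rise above 1.14-fold lies outside it. The SE is moderated towards the spread of all genes and is wider than the scatter of these 8 values. With a prior that follows the level of the gene, Cd36 still did not pass (limma adjusted p = 0.0603). That was the lowest value over the 22 alternative settings, and the highest was 0.564.

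Scarb1 encodes the receptor for high-density lipoprotein that exchanges cholesteryl ester and free cholesterol with it. Its levels were 9.27, 9.005, 9.04 and 9.05 in unloaded arrays 1 to 4 and 9.26, 9.13, 9.11 and 9.16 in acLDL arrays 1 to 4. The groups overlapped because unloaded array 1 was as high as any acLDL array. The log2 difference was 0.08 ± 0.07 (SE, limma adjusted p = 0.495), with a 95% interval of -0.08 to 0.23.

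Scarb2 encodes LIMP-2, a lysosomal membrane protein that delivers glucocerebrosidase to lysosomes. Its levels were 10.09, 9.97, 9.90 and 10.03 in unloaded arrays 1 to 4 and 10.19, 10.21, 10.07 and 10.21 in acLDL arrays 1 to 4. Of the acLDL arrays, array 3 alone lay within the unloaded range. The log2 difference of 0.18 ± 0.07 (SE) did not pass (limma adjusted p = 0.0646). It passed in 8 of 22 alternative settings, among them without unloaded array 1 (0.0396), without acLDL array 3 (0.0494) and without unloaded arrays 1 and 4 (0.0328), and adjusted p ran from 0.0134 to 0.273 over all of them.

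Olr1, the lectin-like receptor for oxidised LDL also known as LOX-1, had a mean below the background mark. Its unloaded arrays were also the most scattered of the 10 receptors, at 5.70, 5.83, 5.45 and 6.11, and its acLDL arrays stood at 5.95, 5.79, 5.89 and 5.82. The log2 difference was 0.09 ± 0.11 (SE, limma adjusted p = 0.602), with a 95% interval of -0.14 to 0.32. Its sign turned among the alternatives, which ran from -0.04 to 0.22.

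Cd68, the macrosialin gene used to mark macrophages, was lower in each acLDL array than in each unloaded array. Its levels were 12.95, 12.91, 12.90 and 12.97 in unloaded arrays 1 to 4 and 12.89, 12.85, 12.85 and 12.80 in acLDL arrays 1 to 4. The gap between the groups was 0.006, and the log2 difference of -0.09 ± 0.06 (SE) did not pass (limma adjusted p = 0.318). It passed in 1 of 22 alternative settings, a prior that follows the level of the gene (adjusted p = 0.0273). The largest adjusted p over the alternatives was 0.678.

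Lrp1 was the second receptor to rise. Its levels were 11.16, 11.25, 11.27 and 11.29 in unloaded arrays 1 to 4 and 11.53, 11.54, 11.50 and 11.53 in acLDL arrays 1 to 4. The groups lay 0.21 apart, and the acLDL arrays spanned only 0.05. The log2 difference was 0.28 ± 0.06 (SE, limma adjusted p = 0.00310), a 1.22-fold rise from 11.24 ± 0.06 to 11.52 ± 0.02 (SD, n = 4). It passed in all 22 alternative settings, with a log2 difference from 0.25 to 0.31. Vldlr, which takes up triglyceride-rich particles, had a mean below the background mark in both groups. Its levels were 5.87, 6.14, 6.01 and 6.13 in unloaded arrays 1 to 4 and 5.97, 5.94, 6.08 and 6.06 in acLDL arrays 1 to 4, which overlap. The log2 difference was -0.02 ± 0.07 (SE, limma adjusted p = 0.857), with a 95% interval of -0.18 to 0.13, and its sign turned in some alternatives, up to 0.01.

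**Figure D3:**
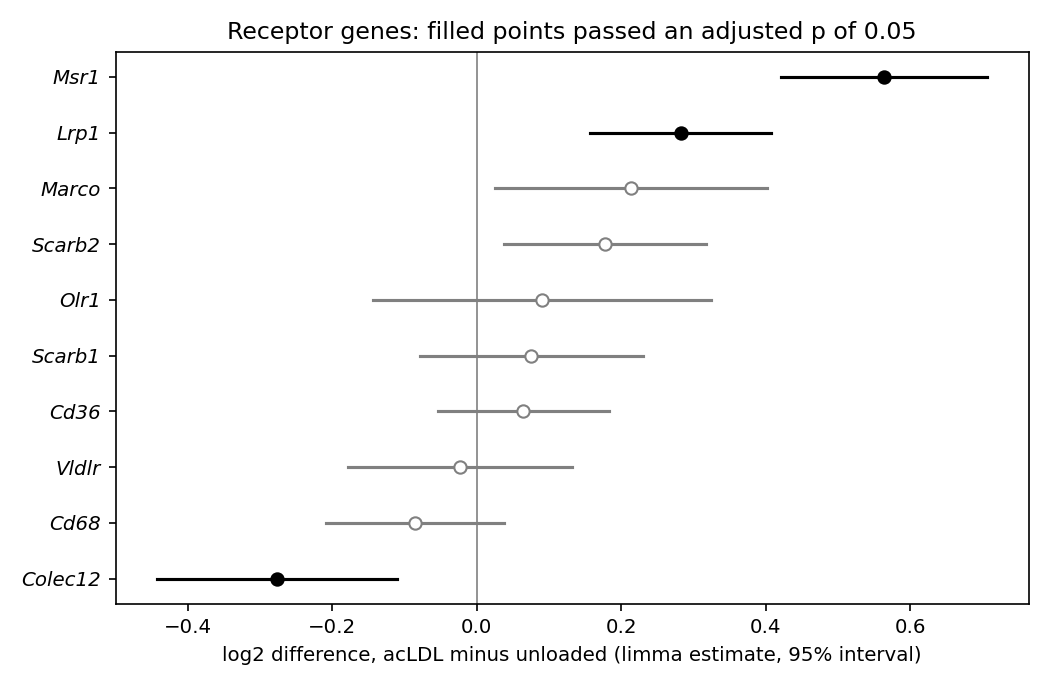
Log2 difference (acLDL minus unloaded) of the 10 receptor genes with the 95% interval of the limma fit, not adjusted over genes; filled black points passed an adjusted p of 0.05. Msr1 (0.56), Lrp1 (0.28) and Colec12 (-0.28) are filled, and the intervals of Marco and Scarb2 exclude 0 although neither passed after adjustment.

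The lists of related genes that follow were drawn up with earlier results of these data known. Their counts are descriptions, to be read beside 23.8% called over all genes (12.9% higher, 10.9% lower). Beside the 10, other scavenger receptors went both ways. Of 12 measured, 3 rose, 2 fell and 7 did not pass, with a median log2 difference of -0.07. Stab1, a large receptor of sinusoidal endothelium and macrophages that binds acLDL, rose 2.69-fold. The chemokine and oxidised LDL receptor gene Cxcl16 fell by 0.60 and the inhibitory Fc receptor gene Fcgr2b by 0.39 on the log2 scale. Both falls passed in all 22 alternative settings. Scarf2 and Mrc1, the mannose receptor gene, rose by 0.29 and 0.25 and are named after their values were seen. Scarf2 did not pass without unloaded arrays 1 and 4, and Mrc1 without unloaded arrays 2 and 3.

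Of 13 measured relatives of Lrp1 and Vldlr, 5 rose, 2 fell and 6 did not pass. The sorting receptors led. Sorl1, which moves cargo between the Golgi and endosomes, was at 7.38, 7.48, 7.48 and 7.34 in unloaded arrays 1 to 4 and at 8.16, 8.01, 7.98 and 8.11 in acLDL arrays 1 to 4. The groups lay well apart, and the log2 difference was 0.65 ± 0.07 (SE, limma adjusted p = 1.71e-05). Sort1, encoding sortilin, rose by 0.50 ± 0.08 and Lrp10 by 0.34 ± 0.07 (log2, SE). The Wnt co-receptor gene Lrp5 and the family member Lrp3, named after their values were seen, rose by 0.24 and 0.33. The members that fell were Lrp8, an apolipoprotein E and reelin receptor gene, by 0.23 and Lrp12 by 0.19 on the log2 scale. Lrp12 lost its call without unloaded array 1 or 4 or both, and without acLDL array 2, 3 or 4. Lrp8 lost its call without unloaded arrays 2 and 3, and neither passed after median centring.

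**Figure D4:**
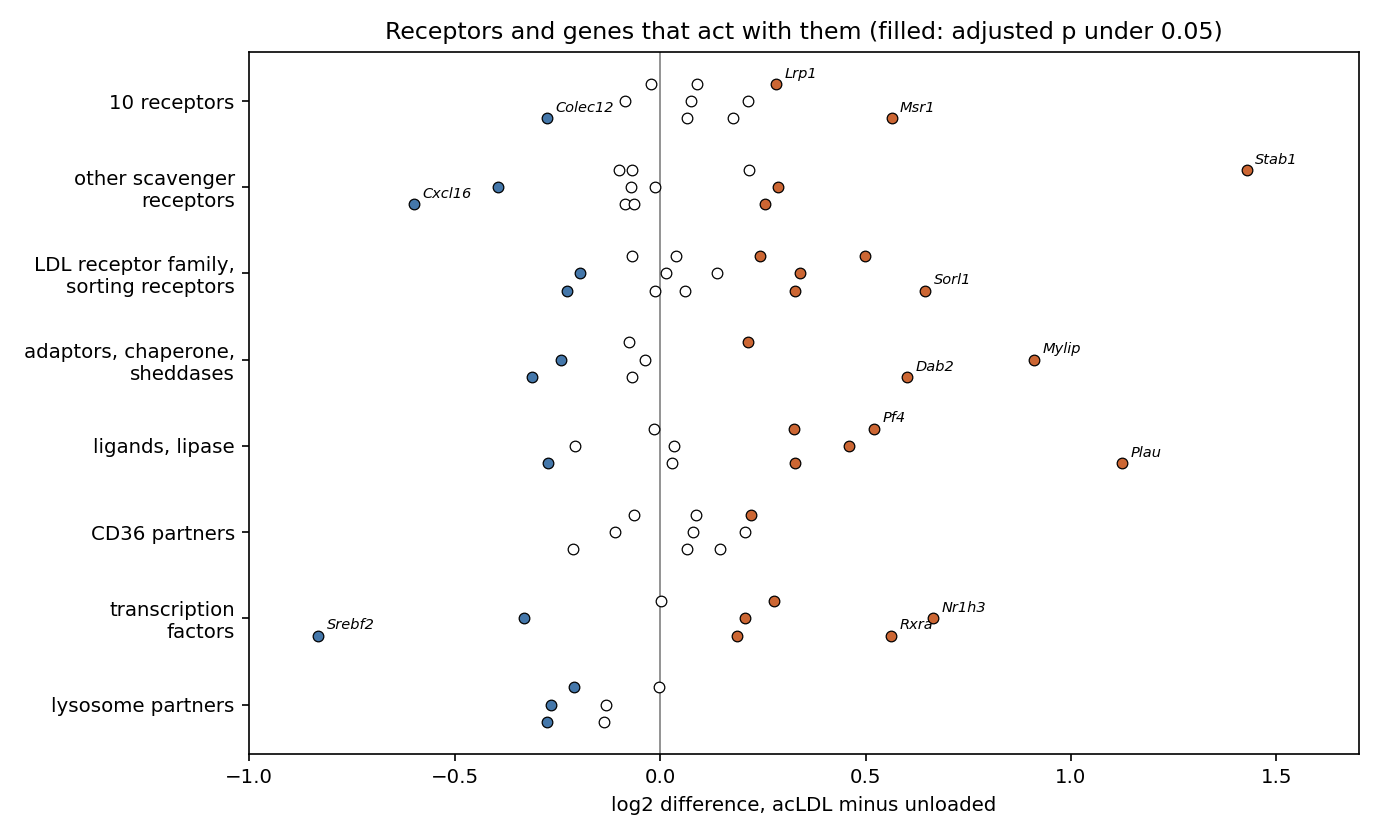
Log2 difference (acLDL minus unloaded) of the 10 receptor genes and of genes that act with them, 1 point a gene, spread vertically only to separate points; orange points rose and blue points fell at an adjusted p under 0.05, and open points did not pass. Stab1 (1.43), Plau (1.12), Mylip (0.91), Nr1h3 (0.66), Sorl1 (0.65) and Dab2 (0.60) lie farther right than Msr1 (0.56). Srebf2 (-0.83) lies farthest left, and Dab2 is shown by its brightest probe set.

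Among adaptors, chaperones, ligases and sheddases of these receptors, 8 of 11 listed genes were measured, and 3 rose, 2 fell and 3 did not pass. Mylip, the ligase that marks Vldlr and Lrp8 for degradation, rose by 0.91 ± 0.06 (log2, SE). Dab2, a clathrin adaptor that binds the tails of the LDL receptor family, rose by 0.60 ± 0.07 (log2, SE). With the mean of its probe sets in place of the brightest one the rise was 0.27. The rest of its probe sets therefore averaged below 0.27, and the rise of 0.60 rests on the brightest. Snx17, which returns Lrp1 from endosomes to the surface, rose by 0.21, but its call was lost in 8 alternatives, among them without unloaded array 2, 3 or 4, without acLDL array 1, 2 or 4, and without unloaded arrays 2 and 3 together. The protease genes Adam10 and Adam17, whose products shed surface receptors, fell by 0.31 and 0.24 on the log2 scale, the second no longer called without unloaded arrays 1 and 4 and after median centring. Lrpap1, the chaperone of Lrp1, averaged 10.06 ± 0.09 without and 10.02 ± 0.09 with acLDL (log2, SD, n = 4) and did not pass.

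Of 10 measured ligands of the receptors and enzymes that remodel particles, 5 rose, 1 fell and 4 did not pass, with a median log2 difference of 0.18. The largest rise was in Plau, the urokinase gene, whose product Lrp1 clears in complex with its inhibitor, by 1.12 ± 0.07 (log2, SE). Pf4, a chemokine gene known from platelets, rose by 0.52 and Pltp, the phospholipid transfer protein gene, by 0.46. Apoe, the remnant ligand of Lrp1, and Lpl, the lipase that also bridges particles to receptors, rose by 0.33 each and are named after their values were seen. The gene that fell was Thbs1, a ligand of CD36 and Lrp1, by 0.27 on the log2 scale, and it lost its call in 8 of 22 alternatives: without unloaded array 4, without any 1 of the acLDL arrays, without unloaded arrays 1 and 4, after median centring and over all deposited probe sets.

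Of 9 measured partners of CD36, 1 rose, 0 fell and 8 did not pass. Slc27a4, a fatty acid transporter gene, rose by 0.22 (limma adjusted p = 0.0331) and lost its call without unloaded array 3 or 4, without acLDL array 1, 2 or 3, and without unloaded arrays 2 and 3 together. Fabp4 and Fabp5, the fatty acid binding protein genes, stood at 9.37 and 11.55 in unloaded and 9.46 and 11.43 in acLDL cells, and neither passed. Of 8 transcription factors known to act on genes of these receptors, 5 rose, 2 fell and 1 did not pass. Srebf2, a factor that drives sterol synthesis genes when cell sterol is low, fell by 0.83 ± 0.06, and Nr1h3 and Rxra, encoding LXR alpha and its partner, rose by 0.66 and 0.56 (log2). Pparg, whose product drives Cd36 transcription, fell by 0.33 ± 0.06 (log2, SE), and Spi1, encoding PU.1, rose by 0.28 ± 0.07, both named after their values were seen. The Spi1 call was lost without unloaded arrays 2 and 3. The remaining risers Srebf1 and Nfe2l2, at 0.21 and 0.19, lost their calls without acLDL array 2 or 4. Nfe2l2 passed in only 9 of 22 alternatives, and its call was also lost without unloaded array 2, 3 or 4, acLDL array 1 or 3, or unloaded arrays 2 and 3, and after median centring or quantile normalisation.

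Of 6 lysosomal partners of Scarb2 and Cd68, 0 rose, 3 fell and 3 did not pass. The tetraspanin gene Cd63 fell by 0.27, the acid lipase gene Lipa, whose product frees cholesterol from the particles taken up, by 0.27, and Lamp2 by 0.21 on the log2 scale. Lamp2 lost its call without unloaded array 4, without unloaded arrays 1 and 4, without acLDL array 1 and after median centring. Lamp1, the most used lysosomal marker, differed by 0.00 ± 0.06 (log2, SE) and did not pass. Among macrophage markers, 4 of 9 rose, 2 fell and 3 did not pass. Fcgr1, Itgam, Adgre1 and Mertk rose by 0.71, 0.63, 0.59 and 0.33, and Cd14 and Mpeg1 fell by 0.33 and 0.21 on the log2 scale, all named after their values were seen. Cd14 lost its call without unloaded arrays 1 and 4, and Mpeg1 there, without acLDL array 4 and after median centring.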

How the data were processed

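Biotin-labelled RNA of 8 cultures was measured on Affymetrix arrays, 1 culture an array. Values were deposited in log2 units after RMA, per the submitters' processing notes. Version and settings of RMA, like the genome build, were not given in the sources used here. This step makes the arrays' distributions alike, so that a shift common to all genes cannot be seen, and it shrinks differences of dim genes. The table holds 35557 probe sets, 23410 of them annotated. A gene was read from its brightest single-symbol probe set, or a shared one where it had no other, which gave 20566 tests. Differences, acLDL minus unloaded, were tested with limma 3.58.1 in R 4.3.3 (two-sided, Benjamini-Hochberg over all 20566, no block). Receptors and lists were chosen with earlier results of these data known, and the named genes were all receptors, up to 3 called genes of each list with the largest change, and the smallest p of each list of other cells. The motifs were chosen after the values were seen. On simulated arrays, 200 of 20566 genes were changed. There limma recovered 94% of 1.5-fold, 98% of 2-fold and 100% of 3-fold and 6-fold changes, with 10 false calls. Recovery below 1.5-fold was not tested, and Msr1, the receptor with the largest difference, differed 1.48-fold. False calls with more than 200 genes changed were not tested either, and 4892 genes were called in the data. The number of arrays limits precision, and the median SE was 0.074. No label ties equal replicate numbers to a shared origin.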

Additional observations from a re-analysis of the deposited data

Results flagged for a closer look

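In the named genes, 80 groups of 4 arrays were checked for an array far from the other 3, and 6 were found, where chance gives about 1 in 20. Among the receptors, Scarb2 in acLDL cells was the one group found: array 3 was lowest, with a gap to the next array of 0.844 of the group's range, or 0.12 of 0.142 on the log2 scale. The Scarb2 difference passed without that array (limma adjusted p = 0.0494). Mylip in unloaded array 3 was lowest with a gap of 0.916 of the range, and Plau in unloaded array 2 was lowest with a gap of 0.835. Lipa in acLDL array 3 was highest with a gap of 0.908, over a range of only 0.0395. Of the markers of other cells, Cma1 in unloaded array 1 was lowest with a gap of 0.905, and Blk in unloaded array 3 was highest with a gap of 0.831.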

How the results depend on the processing

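Over 22 alternatives, Msr1 and Lrp1 remained past the threshold in all, Colec12 in 17, and Cd36, Scarb1, Olr1 and Vldlr passed in 0 (Olr1 and Vldlr had no value under the filter on dim genes). Receptors called numbered 5 with a trended robust prior, which added Scarb2 and Cd68, and 2 to 4 over the fits that left out 1 array. Over all 35557 deposited probe sets, 7603 were called (4038 lower). Of those called there 46.89% were higher, against 54.15% in the fit of 20566 genes. The lower calls numbered 1495 after median centring. The causes of these and other changes were not tested. Leaving out each array gave 3791 to 4835 genes called, 2092 to 2674 higher and 1699 to 2178 lower. With the replicate number as a block, 5109 genes (2742 higher, 2367 lower) and 4 receptors were called, the addition being Marco (limma adjusted p = 0.0448). Deviations of arrays with the same number correlated at -0.163 to 0.299, and 3 of 8 arrays were closest to their own number, so the pairing rests on a number alone. Of 704 counts over the lists, 601 stayed equal or within 1.5 times. Counts that were 0 and stayed 0 are among the 601, so this number is not a measure of robustness. Signal near background limits Olr1, Vldlr and Marco.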

Other observations

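Within the unloaded group, 8 of the 10 receptor genes were higher on average in arrays 1 and 4 than in arrays 2 and 3, the exceptions being Lrp1 and Vldlr. The same held for 49.2% of all genes and for 64.6% of the 12050 genes above the background mark. Msr1 averaged 9.69 in unloaded arrays 1 and 4 and 9.55 in arrays 2 and 3, a gap well under its difference between the conditions. Scarb2 averaged 10.06 and 9.93 in the same pairs, and Scarb1 9.16 and 9.02.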
